A study of Mus musculus with 9 samples.

Results

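The genes described here are members of the fibroblast growth factor (FGF) and ERK pathway and its feedback loop. They were chosen by name (Fgf4, Fgfr1, Fgfr2, Etv4, Etv5, Spry2, Spry4, Dusp6 and Spred1), with earlier results of these data known. All 9 were among the 13499 genes of the deposited table. The libraries are RNA from mouse embryonic stem (ES) cells of strain C57BL/6, cultured with LIF on gelatine and sorted in a cytometer on a GFP-Myc or an EYFP signal, with no drug or genetic knockout named. The 3 populations, Low, Medium and High, are named by Myc level and hold 3 biological replicates each. Which reporter served which library, and whether the cells are 1 clone, is not given in the sources used here, and the reporter stands for Myc protein or gene activity only as far as the sort does.

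FGF ligands bind receptor tyrosine kinases at the cell surface with heparan sulphate as a cofactor, and the receptors signal through Ras, Raf and MEK to the kinase ERK. ERK activity induces transcription factors of the Etv family and a set of inhibitors, among them Sprouty and Spred proteins and the phosphatase Dusp6, which dampen the pathway in a negative feedback loop. In ES cells Fgf4 is an autocrine ligand, and its signal through ERK is known for moving cells out of the naive state towards lineage commitment.

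Among these 9 genes, the ligand Fgf4, the target Etv4 and the feedback inhibitors were higher in the High population than in the Low one, and the receptor Fgfr2 was lower. Between High and Low, 6 of the 9 genes rose (Fgf4, Etv4, Spry2, Spry4, Dusp6 and Spred1), 1 fell (Fgfr2) and 2 did not pass the test (Fgfr1 and Etv5). The test was limma on log2(normalized count + 1 CPM) over all genes, with an adjusted p-value under 0.05 as the threshold. By the same test 13.8% of all 13499 genes were higher in High and 14.6% lower. The median log2 fold change of the 9 genes was 0.50, and that of all genes was 0. Etv4 and Fgfr2 stood near the ends of the genome-wide range: 32 genes had a higher fold change than Etv4, and 22 had a lower one than Fgfr2. The values below are normalized counts on a scale close to CPM, in the order of replicates 1 to 3. CPM brings the reads of each library to a common total, while the totals of these values ran from 953055 to 1026948.

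**Figure D1:**
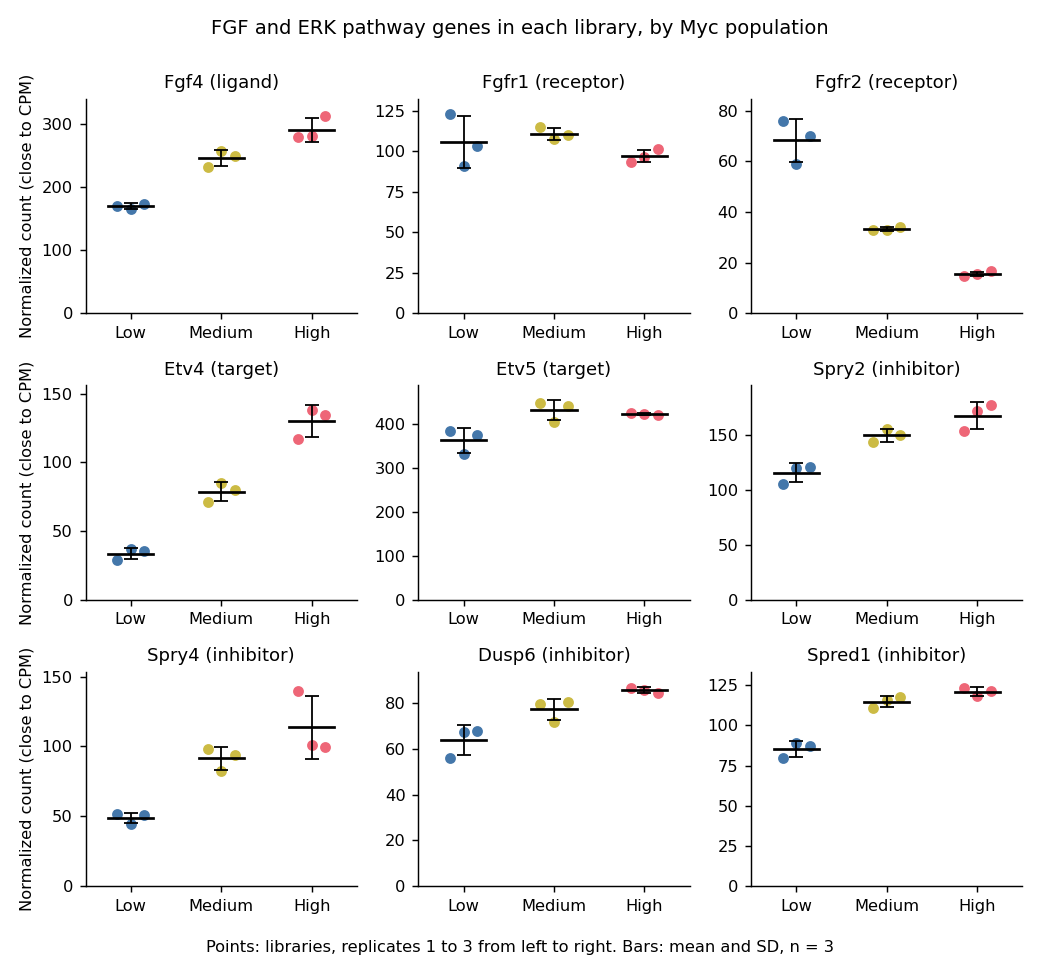
Normalized count (y axis from 0, close to CPM) of each of the 9 genes in the 3 Low, 3 Medium and 3 High libraries, with the mean and SD of each population. The Etv4 points step up from 28.7 to 36.7 in Low to 117 to 138 in High, and the Fgfr2 points step down from 58.9 to 75.7 in Low to 14.8 to 16.5 in High.

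**Figure D2:**
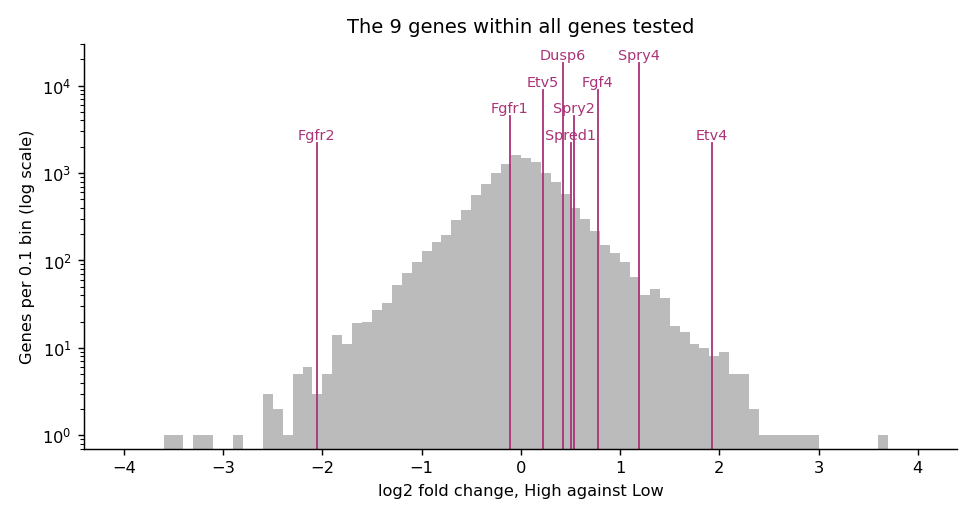
Number of genes (log axis) by log2 fold change of High against Low for all 13499 genes, with the 9 pathway genes marked by lines. Fgfr2 lies in the left tail and Etv4 in the right tail, while Fgfr1 lies near the middle.

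The sequences upstream of 4 of these genes are shown because 3 of them, Fgf4, Spry2 and Dusp6, rose together and the other, Fgfr2, moved the other way. RefSeq windows on GRCm38.p6 were matched for 6 of the 9 genes, with 7 windows in all since Etv5 has 2. Etv4, Fgfr1 and Spry4 are named only. Each sequence is the 250 bases before an annotated transcription start, 5′ to 3′ on the gene's strand. It lies at chr7:144861136-144861385 (+) for Fgf4, chr14:105896820-105897069 (-) for Spry2, chr10:99262981-99263230 (+) for Dusp6 and chr7:130266809-130267058 (-) for Fgfr2. For Fgf4 and Fgfr2 the window lies inside the annotated gene interval given below, which begins farther upstream on the gene's strand. Capitals mark matches to GGAA on either strand, the core bound by ETS factors such as Etv4 and Etv5.

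Fgf4: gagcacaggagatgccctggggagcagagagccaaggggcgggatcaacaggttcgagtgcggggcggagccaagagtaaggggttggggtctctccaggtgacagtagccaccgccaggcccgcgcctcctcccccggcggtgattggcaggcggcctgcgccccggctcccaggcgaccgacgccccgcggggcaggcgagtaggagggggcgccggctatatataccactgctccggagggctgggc
Spry2: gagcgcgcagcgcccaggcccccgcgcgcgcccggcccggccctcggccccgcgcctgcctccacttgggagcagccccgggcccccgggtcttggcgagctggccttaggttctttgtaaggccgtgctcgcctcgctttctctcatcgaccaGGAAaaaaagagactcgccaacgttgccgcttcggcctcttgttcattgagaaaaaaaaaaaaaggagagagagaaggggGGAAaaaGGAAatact
Dusp6: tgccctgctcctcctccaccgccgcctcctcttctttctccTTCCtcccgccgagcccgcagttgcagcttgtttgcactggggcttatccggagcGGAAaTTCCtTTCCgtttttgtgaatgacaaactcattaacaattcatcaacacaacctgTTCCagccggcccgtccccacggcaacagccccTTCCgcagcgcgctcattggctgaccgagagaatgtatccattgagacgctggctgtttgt
Fgfr2: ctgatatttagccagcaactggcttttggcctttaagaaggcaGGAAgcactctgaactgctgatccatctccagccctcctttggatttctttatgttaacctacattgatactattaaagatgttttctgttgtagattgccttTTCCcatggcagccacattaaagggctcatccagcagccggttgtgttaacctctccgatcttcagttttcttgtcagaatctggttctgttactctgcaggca

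The core was found 6 times before Dusp6, 3 times before Spry2, 2 times before Fgfr2 and 0 times before Fgf4. It is a short motif: 93.4% of all 32851 windows of the same length hold at least 1 match, with a median of 3. Spred1 had 4 matches, and the Etv5 windows had 0 and 4. The longer form CCGGAA, which contains the core, is in 12% of all windows, and the E-box CACGTG that Myc and Max can bind is in 6.02%; both were searched on both strands. Neither was in any of the 7 windows, which says only that these letters are not there.

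The libraries held 11114936 to 16755566 recovered reads, and the lowest read count of any of the 9 genes in any library was 172 (Fgfr2 in High), a counting error of 7.62%. Of 8 ES cell markers, including Pou5f1, Sox2 and Nanog, all were measured with no library at 0, 4 rose and 0 fell in High; their summed level ran from 4010 to 5266 in Low and from 4763 to 5365 in High. Markers of other cell types moved with the sort. Of 8 measured trophoblast markers 7 fell, and their summed level was 479 to 587 in Low, 225 to 246 in Medium and 136 to 145 in High. Of 5 measured primitive endoderm markers 4 rose and 1 fell, with sums of 255 to 268, 416 to 428 and 508 to 529. Fibroblast or feeder markers had 2 of 7 higher and 0 lower, with sums of 441 to 905, 874 to 1117 and 986 to 1290. Primed epiblast markers had 3 of 4 lower and 0 higher, with sums of 607 to 739, 758 to 857 and 732 to 828. That sum did not fall with the calls, so calls and sum give different pictures of these markers. Of it, Fgf5 made up 9.26 in Low and 2.42 in High on average. Over all genes the same test called 13.8% higher and 14.6% lower. No measured marker was at 0 in any library. Some listed markers were not among the 13499 genes, so the counts above rest on the others. These were the defining markers Cdx2, Elf5 and Hand1 of trophoblast and Gata6, Gata4, Sox17, Pdgfra and Foxa2 of primitive endoderm. Lum of fibroblasts and T of primed cells were also absent. The part of other cell types in the results below was not tested, and in these bulk libraries a smaller number of expressing cells cannot be told apart from less RNA in each cell.

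Fgf4, the autocrine FGF of ES cells (chromosome 7, 144847367 to 144865243 on GRCm38), rose with Myc level. It read 170, 165 and 174 in Low, 232, 256 and 250 in Medium, and 279, 281 and 313 in High. No library of a population overlapped one of the next. The means were 169 ± 4.53 (SD, n = 3), 246 ± 12.3 and 291 ± 19.2, so High exceeded Low 1.72-fold (log2 fold change 0.77, SE 0.0771, limma adjusted p = 0.000112). The step from Low to Medium passed (0.54, adjusted p = 0.00325) and the step from Medium to High did not (0.24, adjusted p = 0.26).

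The receptors went different ways. Fgfr2, which encodes a receptor tyrosine kinase for FGFs (chromosome 7, 130162451 to 133123350), read 75.7, 58.9 and 69.8 in Low, 32.9, 32.8 and 34.0 in Medium, and 14.8, 15.3 and 16.5 in High. All 3 populations were separate, and the libraries of Medium and those of High lay close together within their population. The mean fell from 68.2 ± 8.5 (SD, n = 3) through 33.2 ± 0.636 to 15.5 ± 0.876, which makes Low 4.39-fold higher than High (log2 fold change -2.06, SE 0.102, adjusted p = 2.49e-06). Both steps passed and were of like size, -1.01 from Low to Medium (adjusted p = 0.000534) and -1.05 from Medium to High (adjusted p = 0.00315). Trophoblast markers, listed above, fell over the same libraries, and their part in the fall of Fgfr2 was not tested. The annotated Fgfr2 model shares an exon stretch of up to 210 nt with Ctbp2 on the same strand; Ctbp2 itself rose, from 210 ± 37.6 in Low to 306 ± 14.1 in High (log2 fold change 0.56, adjusted p = 0.00784).

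Fgfr1 encodes the other FGF receptor tyrosine kinase of the set (chromosome 8, 25513654 to 25575718). It read 123, 90.9 and 103 in Low, 115, 107 and 110 in Medium, and 93.2, 96.5 and 101.0 in High. The Low libraries spanned the values of both other populations. Every Medium library lay above every High one, an order whose share among all genes was not counted. High and Low did not differ by the test (log2 fold change -0.11, 95% interval from -0.35 to 0.12, adjusted p = 0.461), and without Low replicate 1, the highest library, the estimate was 0.00 (adjusted p = 0.988). Neither step passed, with adjusted p = 0.642 for Medium against Low and adjusted p = 0.6 for High against Medium. The sense strand of Fgfr1 overlaps exons of the antisense gene Gm16159 by up to 164 nt, and the use of strand in the counting is not given in the sources used here.

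Within a library, the log2 ratio of Fgfr1 to Fgfr2 went from 0.62 ± 0.07 (SD, n = 3) in Low through 1.70 ± 0.06 in Medium to 2.57 ± 0.02 in High. A ratio within a library is nearly free of how that library was scaled, and shows unequal change, not which gene moved. The difference between High and Low was 1.95, with every High library above every Low one (exact two-sided permutation test, p = 0.1, the smallest value that 3 against 3 allows, and also 0.1 after adjustment over the 3 ratios tested).

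Etv4 and Etv5 encode ETS transcription factors of the PEA3 group, both known as ERK-induced genes. Etv4 (chromosome 11, 101769742 to 101785371) had the largest rise of the 9 genes. It read 28.7, 36.7 and 35.1 in Low, 71.2, 85.3 and 79.7 in Medium, and 117, 138 and 135 in High. The populations did not overlap. Its mean went from 33.5 ± 4.21 (SD, n = 3) to 78.7 ± 7.08 and 130 ± 11.7, a 3.88-fold rise from Low to High (log2 fold change 1.93, SE 0.116, adjusted p = 6.91e-06). Medium exceeded Low 2.35-fold (adjusted p = 0.00039) and High exceeded Medium 1.65-fold (adjusted p = 0.0367). That last call was lost without Low replicate 3 or without any single Medium or High replicate, with adjusted p from 0.0829 to 0.205, and with quantile normalization (0.0594).

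Etv5 (chromosome 16, 22381309 to 22439719) did not pass between High and Low. It read 384, 331 and 377 in Low, 448, 406 and 442 in Medium, and 426, 424 and 420 in High. All Low libraries were under all others, while Medium and High overlapped. Its means were 364 ± 28.6 (SD, n = 3), 432 ± 23.1 and 423 ± 2.94, so High was 1.16-fold Low (log2 fold change 0.22, 95% interval from 0.04 to 0.40, adjusted p = 0.0727). It did pass with a block for replicate number (adjusted p = 0.0312), without Low replicate 1 (0.0264) and after a transcript length correction (0.0118). The estimate for Medium against Low was 0.25 (adjusted p = 0.0779), and that for High against Medium was -0.03 (adjusted p = 0.965).

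Within a library, the log2 ratio of Etv4 to Etv5 climbed from -3.41 ± 0.28 (SD, n = 3) in Low through -2.44 ± 0.20 in Medium to -1.70 ± 0.14 in High. The difference between High and Low was 1.71, with no overlap (exact two-sided permutation test, p = 0.1, the smallest possible). The libraries of the 3 populations formed separate ranges.

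**Figure D3:**
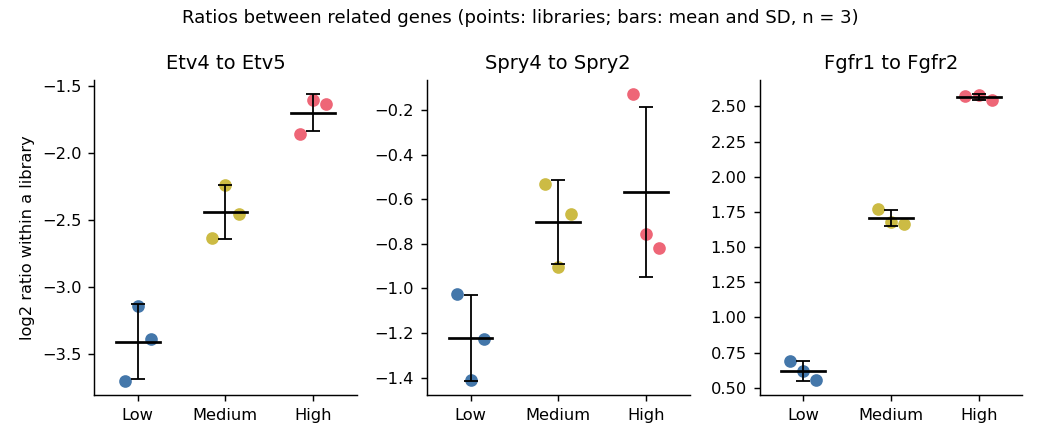
Log2 ratio within each library (y axis, a different range per panel) of Etv4 to Etv5, Spry4 to Spry2 and Fgfr1 to Fgfr2, for the Low, Medium and High libraries with mean and SD. The Fgfr1 to Fgfr2 ratio has the smallest spread, with means of 0.62, 1.70 and 2.57, and the Spry4 to Spry2 ratio of High replicate 1 lies apart at -0.13.

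Among the inhibitors, the Sprouty genes Spry4 and Spry2 encode proteins that block signalling from the receptor to ERK. Spry4 (chromosome 18, 38586247 to 38601415) read 51.3, 44.5 and 50.8 in Low, 98.5, 82.5 and 94.0 in Medium, and 140, 101.3 and 99.9 in High. High replicate 1 was well above the other High libraries, which lay just above Medium. The mean rose 2.33-fold, from 48.9 ± 3.77 (SD, n = 3) in Low to 114 ± 22.7 in High (log2 fold change 1.19, SE 0.135, adjusted p = 0.000234; 1.03 without High replicate 1). Medium was 91.7 ± 8.22, which was higher than Low (0.89, adjusted p = 0.00403), while High against Medium did not pass (0.29, adjusted p = 0.472).

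Spry2 (chromosome 14, 105891947 to 105896819) read 105, 120 and 120 in Low, 143, 155 and 150 in Medium, and 153, 172 and 177 in High. High and Medium overlapped and both lay above Low. Its means were 115 ± 8.6 (SD, n = 3), 149 ± 6.11 and 167 ± 12.6, a 1.45-fold rise from Low to High (log2 fold change 0.53, SE 0.0872, adjusted p = 0.00182). The rise from Low to Medium passed (0.37, adjusted p = 0.025), and the call was lost without Low replicate 3 (0.0722), without any single Medium replicate (0.0531 to 0.089) and with quantile normalization (0.062). High against Medium gave 0.16 (adjusted p = 0.584).

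For Spry4 to Spry2 the log2 ratio went from -1.22 ± 0.19 (SD, n = 3) in Low through -0.70 ± 0.19 in Medium to -0.57 ± 0.38 in High. The High libraries lay above the Low ones by 0.65 on average, with no overlap (exact two-sided permutation test, p = 0.1, the smallest possible), and by 0.43 without High replicate 1. Medium and High overlapped.

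Dusp6, a phosphatase that removes the activating phosphates of ERK in the cytoplasm (chromosome 10, 99263231 to 99267489), read 56.1, 67.6 and 67.9 in Low, 79.5, 72.0 and 80.5 in Medium, and 86.8, 86.0 and 84.6 in High. The 3 populations did not overlap. The mean rose 1.34-fold, from 63.9 ± 6.71 (SD, n = 3) through 77.4 ± 4.66 to 85.8 ± 1.1 (log2 fold change of High against Low 0.43, SE 0.0918, adjusted p = 0.00784). Neither single step passed, at 0.28 for Medium against Low (adjusted p = 0.078) and 0.15 for High against Medium (adjusted p = 0.657). Medium against Low did pass in limma with sample weights (adjusted p = 0.00984) and with a block for replicate number (0.0457). It also passed after the transcript length correction (0.0128), and with the block added to that correction (0.0113).

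Spred1, a Sprouty-related protein that restrains Ras and Raf (chromosome 2, 117121374 to 117182279), read 80.0, 88.9 and 87.0 in Low, 111, 116 and 118 in Medium, and 123, 118 and 122 in High. The Medium and High libraries were close together and all above Low. Its means were 85.3 ± 4.69 (SD, n = 3), 115 ± 3.44 and 121 ± 2.55, a 1.42-fold rise from Low to High (log2 fold change 0.50, SE 0.0716, adjusted p = 0.000889). By the estimates most of it lay in the step from Low to Medium (0.43, adjusted p = 0.00663), against 0.08 from Medium to High (adjusted p = 0.837). Spred1 has a long annotated transcript, 6016 nt against a median of 3288 nt over all matched genes, and after a correction for transcript length the step from Low to Medium was 0.26 (adjusted p = 0.159); it passed in the other 21 alternatives, and High against Low passed in all 22.

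**Figure D4:**
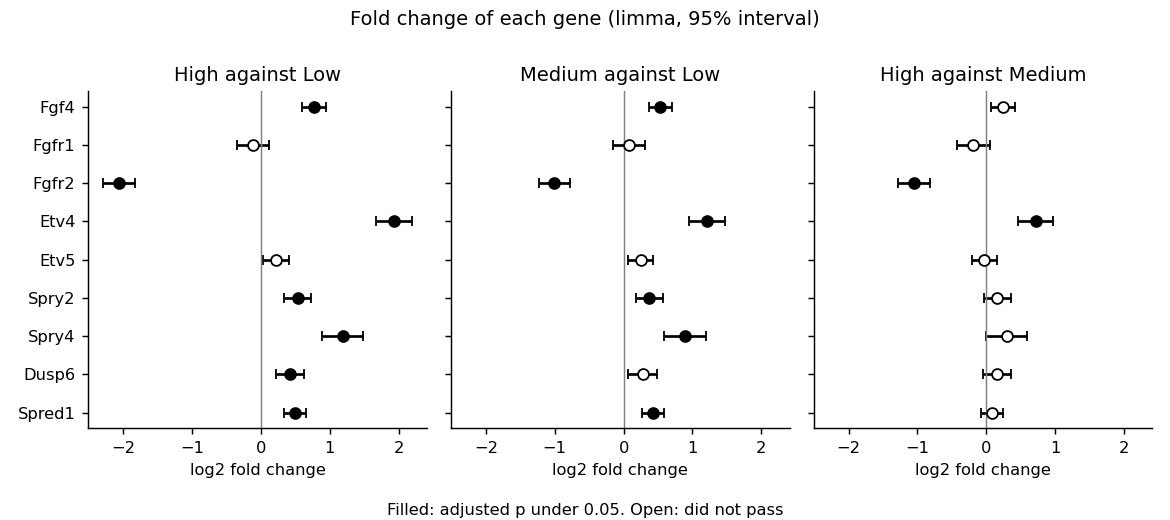
Log2 fold change (x axis) with its 95% interval from limma for each gene in High against Low, Medium against Low and High against Medium; filled points passed an adjusted p of 0.05. In the last panel only Fgfr2, at -1.05, and Etv4, at 0.72, are filled.

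By their means, the genes that rose made most of the rise between Low and Medium. The 2 steps share the Medium libraries. Whether they differ in size is what Medium against the mean of High and Low tests, given below. In the main limma fit 0 of the 9 genes passed that test. Between Medium and Low, 5 of the 9 genes rose (Fgf4, Etv4, Spry2, Spry4 and Spred1), against 6.14% of all genes, and Fgfr2 fell, against 5.87%. Between High and Medium, Etv4 rose, against 0.0815% of all genes, and Fgfr2 fell, against 0.326%. By the means, the part of the log2 change from Low to High that was reached in Medium was 48.6% for Fgfr2, 63.1% for Etv4, 64.8% for Dusp6, 69.1% for Fgf4, 69.6% for Spry2, 74.4% for Spry4 and 84.9% for Spred1.

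Medium was compared with the mean of High and Low to test for a departure from an even course. All 9 genes had Medium above that midpoint, with log2 differences of at most 0.30, though Fgfr2 (0.02) fell below it with quantile normalization (-0.01), and 0 passed with limma, edgeR or DESeq2. At an unadjusted p of 0.05, 3 of the 9 passed in limma (Etv4, Spry4 and Spred1) beside 766 of the 13499 genes. With adjusted p-values 0% of all genes passed in limma, 0 in edgeR and 17 in DESeq2.

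In 7 genes every High library lay above every Low one: Fgf4, Etv4, Etv5, Spry2, Spry4, Dusp6 and Spred1. That pattern was held by 20.2% of all genes. Fgfr2 had the opposite order, held by 21.4%. In 5 genes, Fgf4, Etv4, Spry4, Dusp6 and Spred1, every High library also lay above every Medium one and every Medium one above every Low one, against 4.66% of all genes. The reverse order of all 3 populations was seen in Fgfr2 and in 5.22% of all genes.

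Levels of different genes were compared per kilobase of the longest annotated transcript. In Low, mean normalized counts per kilobase were 91.6 for Etv5, 55.9 for Fgf4, 55.2 for Spry2, 22.9 for Dusp6, 21.0 for Fgfr1, 15.4 for Fgfr2, 14.2 for Spred1, 14.0 for Etv4 and 10.3 for Spry4. The libraries of neighbours in that order overlapped for Fgf4 and Spry2, for Dusp6 and Fgfr1, for Fgfr2 and Spred1, and for Spred1 and Etv4. In Medium the order was Etv5 at 109, Fgf4 at 81.2, Spry2 at 71.6, Etv4 at 32.9, Dusp6 at 27.7, Fgfr1 at 21.9, Spry4 at 19.3, Spred1 at 19.1 and Fgfr2 at 7.5 per kilobase, with an overlap only between Spry4 and Spred1. In High it was Etv5 at 106, Fgf4 at 96, Spry2 at 80.1, Etv4 at 54.3, Dusp6 at 30.7, Spry4 at 23.9, Spred1 at 20.1, Fgfr1 at 19.2 and Fgfr2 at 3.51, with an overlap only between Spred1 and Fgfr1. Etv5, Fgf4 and Spry2 thus led in every population, while Etv4 moved from rank 8 in Low to rank 4 in Medium and High.

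Other genes of the pathway were counted from 5 lists, 83 of whose 90 genes were measured. The lists were also chosen with earlier results of these data known. Of these, 20 (24.1%) rose in High against Low, 14 (16.9%) fell and 49 did not pass, beside 13.8% and 14.6% of all genes, and their median log2 fold change was 0.08. Genes of these lists moved both ways.

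All 6 measured FGF ligands other than Fgf4 passed, 2 as higher and 4 as lower, at low levels throughout, with a median log2 fold change of -0.82. Every gene of the deposited table met the filter of 1 CPM in at least 3 libraries, so the filter removed none here. Which genes were left out before deposit, and by what rule, is not given in the sources used here. A low gene can meet that level only where it is high. Fgf8 met it through Low only, and Fgf10, at 0.446 in Low, met it through the other populations. The count and the median can thus be set in part by which genes the table holds. Fgf17 rose from 3.49 ± 0.696 (SD, n = 3) to 12.6 ± 0.413 (log2 fold change 1.61) and Fgf10 from 0.446 ± 0.102 to 1.56 ± 0.189 (0.84). Fgf15 fell from 6.03 ± 1.71 to 0.967 ± 0.347 (-1.81), Fgf5, a marker of the primed epiblast, from 9.26 ± 2.23 to 2.42 ± 0.244 (-1.56), and Fgf8 from 1.7 ± 0.334 to 0.506 ± 0.257 (-0.83). The remaining ligand gene of the list, Fgf13, which encodes an FGF homologous factor that is not secreted, fell from 3.91 ± 0.691 to 1.75 ± 0.131 (-0.82) and was named after its values were seen. With a filter of 5 CPM, fewer of these genes were tested, and 1 rose and 1 fell.

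Of 19 measured receptors, heparan sulphate proteoglycans and heparan sulphate enzymes, 3 rose, 4 fell and 12 did not pass, with a median of 0.10. The largest falls were in genes for cell surface proteoglycan core proteins: Sdc4 (syndecan 4) went from 300 ± 11.9 (SD, n = 3) to 65.7 ± 5.72 (log2 fold change -2.17), Gpc1 (glypican 1) from 48.7 ± 4.27 to 17.9 ± 0.859 (-1.39) and Gpc3 from 35.5 ± 0.59 to 18.8 ± 1.48 (-0.89). Gpc4, another glypican, rose (0.51), as did Ext1, an enzyme that elongates heparan sulphate chains (0.58), and the receptor Fgfr4 (0.55, from 1.41 ± 0.129 to 2.5 ± 0.0668). With transcript length corrected for, Ext1 was at 0.39 and did not pass (adjusted p = 0.0701), while with the replicate block added to that fit it passed at the same fold (adjusted p = 0.00399).

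The adaptors and kinases of the Ras, Raf, MEK and ERK cascade mostly did not pass. Of 22 measured, 4 rose, 2 fell and 16 did not pass, with a median of 0.05. The scaffold gene Ksr1 (log2 fold change 0.48), the kinase gene Rps6ka2 (0.46) and the adaptor gene Shc1 (0.36) rose; the adaptor gene Frs3 (-0.59) and the MEK gene Map2k1 (-0.33) fell. After rescaling the libraries to equal totals 2 rose and 4 fell, and with the replicate block 7 rose and 4 fell. The number that rose was 1 without Low replicate 2 or 3 or without any single High replicate, and 7 without Low replicate 1; the number that fell was 6 without Low replicate 1 and 1 without High replicate 2, where Map2k1 lost its call (adjusted p = 0.0501). Ksr1 lost its call in the rescaled fit and in each of the 5 fits that gave 1, with adjusted p from 0.063 to 0.101. Rps6ka2 lost its call there too, and also without any single Medium replicate, with edgeR and with no variance trend (0.0518 to 0.147).

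Of 18 other inhibitors, 4 rose, 2 fell and 12 did not pass, with a median of 0.10. Nf1, which encodes the Ras inhibitor neurofibromin, rose from 14.6 ± 5.35 (SD, n = 3) to 32.3 ± 6.24 (log2 fold change 1.13), Il17rd, an inhibitor of FGF signalling also called Sef, by 0.69 and the Ras GTPase-activating gene Rasa2 by 0.67 on the log2 scale. Dusp7, a phosphatase related to Dusp6, went the other way, from 15.8 ± 1.95 to 8.05 ± 1.88 (-0.91), as did Errfi1, an inhibitor of the EGF receptor (-0.87). After the transcript length correction the rises were smaller, 0.77 for Nf1, 0.47 for Il17rd and 0.53 for Rasa2, and each still passed. The falls were then -0.88 for Dusp7 and -0.84 for Errfi1. The number that rose was 7 with the replicate block, and 4 fell with quantile normalization. Rasa2 lost its call without Low replicate 2 or 3 or High replicate 1 or 2, with adjusted p from 0.0663 to 0.103. Cbl, which encodes a ubiquitin ligase for activated receptors, varied widely between replicates, with means from 18.7 ± 21 to 43.7 ± 21.9, and did not pass (1.74, adjusted p = 0.102). Spry1, the other measured Sprouty gene, had a log2 fold change of -0.03 (adjusted p = 0.864).

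Of 18 ERK-responsive genes and ERK-regulated transcription factors, 7 rose, 2 fell and 9 did not pass, with a median of 0.21. Etv1, the remaining member of the PEA3 group, rose from 10.4 ± 1.08 (SD, n = 3) to 25.2 ± 1.52 (log2 fold change 1.21), Plaur, the urokinase receptor, from 6.45 ± 1.39 to 17.8 ± 4.82 (1.32), and Erf, an ETS repressor that ERK inactivates, from 131 ± 22.2 to 291 ± 26.7 (1.15). Ier3 fell from 29.2 ± 7.06 to 9.5 ± 1.26 (-1.50) and Ets1 from 2.15 ± 0.774 to 0.463 ± 0.0191 (-1.06). At that High level, Ets1 met 1 CPM only through the other populations. With a filter of 5 CPM, 1 gene of this list fell. Egr1 and Fos, which ERK activity induces rapidly, did not pass, with log2 fold changes of -0.22 (adjusted p = 0.555) and -0.56 (adjusted p = 0.0906). Cbl, Spry1, Egr1 and Fos were named for their known roles or spread after their values were seen.

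**Figure D5:**
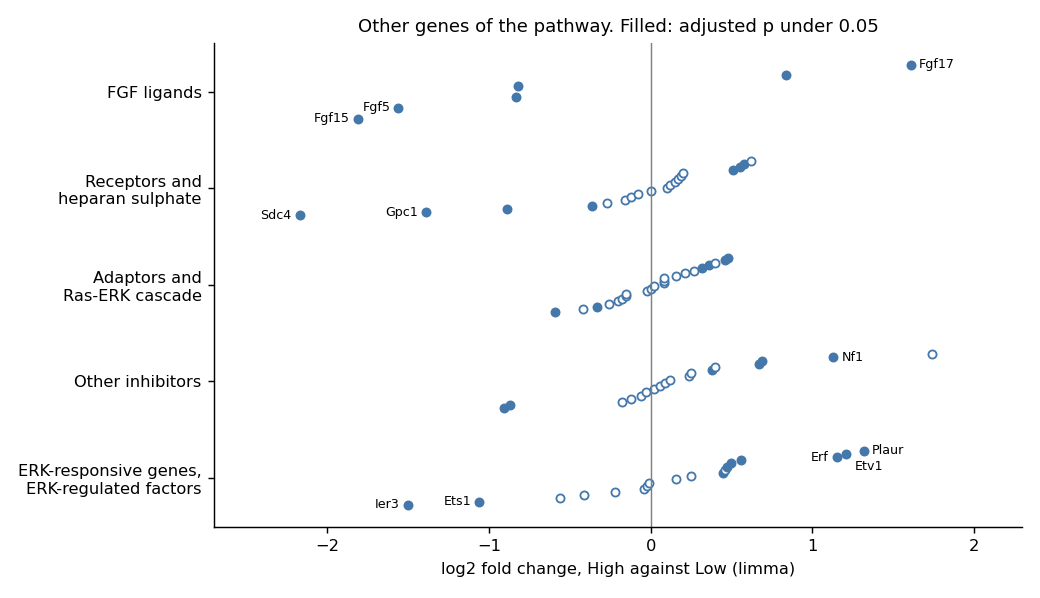
Log2 fold change of High against Low (x axis) for the 83 other measured genes of the pathway in 5 lists; each point is a gene, filled where it passed, with names for those that passed beyond 1 in either direction. Points lie on both sides of 0 in every list, from Sdc4 at -2.17 to Fgf17 at 1.61 among those that passed.

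The genes whose course over the 9 libraries was most like that of each changed member were found by the root mean square (RMS) difference of log2 values, each gene centred on its own mean, over 9 libraries and among genes with a mean of at least 5. For Etv4 they were Notum, a secreted inhibitor of Wnt proteins (RMS 0.0735), Ppm1j (0.129) and Zc3h12a (0.136). For Fgf4 they were Ltbp4 (0.0466), S1pr2 (0.0513) and Actn3 (0.064), and for Spry4 they were Epas1 (0.0877), Steap2 (0.0981) and Cmklr1 (0.105). For Fgfr2 they were Car12 (0.13), Ddit4 (0.137) and the iron exporter gene Slc40a1 (0.14). Those of Spry2 were Fntb (0.0519), Tkt (0.0532) and Rmnd5b (0.0558), those of Dusp6 were Chn1 (0.053), Slc7a3 (0.0534) and Oxnad1 (0.0618), and those of Spred1 were Zfp36l1 (0.0651), Nedd4l (0.0662) and Slc7a3 (0.0678). No member was among the 3 nearest of another member, and Slc7a3 was near both Dusp6 and Spred1.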

How the data were processed

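RNA of 9 libraries was sequenced as single-end reads of 61 nt, per the labels. RSEM 1.17, cutadapt, limma and Picard appear, without a role, per the submitters' processing notes. Which genome build and annotation were used, and whether strand was, is not given in the sources used here. In the file, the authors deposited 1 signal per gene and library, a gene count scaled by library to near CPM. Every deposited signal was a whole multiple of 1 read within 0.001 read, in 100% of cases, so reads were recovered. Column totals were 953055 to 1026948, and 85 genes without a name held 1.71% to 2.53%.

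limma 3.58.1 (R 4.3.3) with a variance trend was run on log2(signal + 1 CPM of the column total) over all 9 libraries. The filter was 1 CPM in at least 3 libraries, which all 13499 genes of the deposited table met. Adjustment was by Benjamini-Hochberg. Fold changes on this scale understate the change of low genes; ratios are of means. edgeR 4.0.16 called 3665 genes for High against Low on recovered reads, and DESeq2 1.42.0 called 3870, against 3832. Members and lists were chosen with earlier results of these data known. By a fixed rule, up to 3 genes each way were named per list, by size, and 3 genes most like each changed member; Fgf13, Cbl, Spry1, Egr1 and Fos were added after their values were seen. Lengths and coordinates are from GENCODE M21 (GRCm38), matched by identifier for 13412 genes. Same-numbered High and Low libraries departed from their means together (r = 0.53, 0.26 and 0.18 over genes), so a replicate block was run; High replicate 3 with Low replicate 2 gave 0.31, which is more than 2 of these. Same-numbered libraries gave 0.35, 0.17 and -0.04 for High with Medium, and 0.24, 0.43 and -0.11 for Medium with Low. Unlike numbers reached 0.35 (High replicate 3 with Medium replicate 2) and 0.25 (Medium replicate 3 with Low replicate 1). At number 3 the libraries did not depart together in either comparison, so blocked values for them are alternatives only. Replicates differed beyond counting noise. They are labelled biological; p-values cover the spread between them. The test was also run on simulated counts with the same dispersion for every gene and library. The real replicates differ unequally, so that run does not check the calls made here.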

Additional observations from a re-analysis of the deposited data

How the results depend on the processing

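Between High and Low, the direction and call of Fgf4, Fgfr2, Etv4, Spry2, Spry4, Dusp6 and Spred1 were the same in all 22 alternatives, with 6 or 7 genes higher and 1 lower; Etv5 passed in 6 of them. Fgfr1, which did not pass, changed sign without Low replicate 1 (0.0017; range over left-out libraries -0.214 to 0.0017) and, for Medium against Low, with the transcript length correction (-0.027, also with the replicate block) and without Low replicate 2 (-0.0257; range -0.0257 to 0.1901). For Medium against the midpoint, Fgfr2 changed sign with a pseudocount of 3 CPM (-0.0008), quantile normalization (-0.0115), the length correction (-0.0225, also with the replicate block) and without Low replicate 2 (-0.0278; range -0.0278 to 0.0607). Members higher in High than in Medium numbered 0 with quantile normalization, 2 with sample weights (Fgf4 also passed, adjusted p = 0.0457) and 0 to 1 when a replicate was left out. With sample weights 2 members passed as above the midpoint. The replicate block changed no member call other than Etv5 in High against Low, and Etv5 (adjusted p = 0.0289) and Dusp6 (0.0457) in Medium against Low. In Medium against Low the number 3 libraries did not depart together. The block added to the length correction gave Spred1 an adjusted p = 0.046 in that comparison. Within replicate numbers the 3 ratios differed by 1.71, 0.65 and 1.95, each with an exact sign-flip permutation p = 0.25, the smallest possible.

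Counts over all genes moved far more. High against Low (3832) gave 7850 with sample weights, 6027 with the replicate block and length correction, 5239 with the replicate block and 2266 (without Low replicate 3) to 5757 (without Low replicate 1) leaving out a library. High against Medium (55) gave 84 with no variance trend, 801 with sample weights, 203 with the replicate block, 320 with the length correction, 504 with both, 260 with DESeq2 and 11 to 208 leaving out a library. Its share of higher calls, 20%, was 31% to 42.9% with a pseudocount of 3 CPM, a filter of 5 CPM, sample weights, the block, the length correction, both, DESeq2 and without Low replicate 1, and 0% to 8.33% without any single Medium or High replicate. Medium against Low (1621) gave 7044 with sample weights, 3656 with the block, 2736 with the length correction, 3810 with both and 497 to 5060 leaving out a library. Medium against the midpoint (0) gave 1153, 1, 2 and 2 in those 4 fits, 17 with DESeq2 and 0 to 70 leaving out a library. The cause of these differences was not tested. The members had 172 to 7392 reads per library; at the lowest, Fgfr2 in High, counting error is up to 7.62%.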
